A study of Mus musculus with 12 samples.

Results

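The comparison asked what PB-020 added to an anti-PD-1 antibody in MC38 tumors, and it set 3 tumors treated with both agents (PB-020/anti-PD-1, called the combination below) against 3 tumors treated with the antibody alone (anti-PD-1). The 6 libraries were chosen by their treatment labels, out of 12 in the series, and the other 6 were vehicle (CK) and PB-020 tumors, which entered the fit for its estimate of the spread and were otherwise used only where stated. MC38 is a mouse colorectal adenocarcinoma line, grown here under the skin of female C57BL/6 mice bought at 5 weeks of age. Both groups received 200 µg of the antibody by intraperitoneal injection on days 9, 12, 15 and 18 after the cells were injected, with the mice divided into groups on day 7. The combination group also received PB-020 by oral gavage at 50 mg/kg per day, and this was the only stated difference in treatment. Whether mice given the antibody alone received a vehicle gavage is not stated. The study reports less tumor growth with the combination than with the antibody alone, so tumor size goes with the treatment, and its part in the values was not tested. RNA came from whole tumors, so tumor and host transcripts of one species are added together, and fewer cells of a type cannot be told apart from less RNA per cell.

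IGF-1R is the receptor tyrosine kinase for insulin-like growth factors. It binds IGF1 and IGF2 at the cell surface and passes the signal through the adaptors IRS1 and IRS2 to phosphatidylinositol 3-kinase (PI3K), AKT and mTOR, which promote growth, protein synthesis and survival. PB-020 was studied as an inhibitor of this receptor. PD-1 is an inhibitory receptor of activated T cells, whose ligand PD-L1 is induced on tumor and myeloid cells by interferon gamma, and antibodies against PD-1 release T cells from this brake. The paper states that PB-020 competes with IGF1 for binding to the receptor. Such inhibition acts on proteins, so transcript levels show the state of the tumor and its infiltrate and not the phosphorylation of the targets. The study read phosphorylated AKT in MC38 tumors by Western blot and reported it as suppressed by the treatments.

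Library totals of expected counts ranged from 16859631 to 16928818 with the antibody alone and from 16545394 to 16986854 in the combination. Of 18211 genes in the table, 13563 had enough counts to be tested. Levels are given as FPKM (fragments scaled by transcript length and by library size), in the order of tumors 1, 2 and 3, and changes as log2 of combination over anti-PD-1, so that positive values are higher in the combination. The label of a colorectal carcinoma line was set against epithelial genes, and several of these were at or near 0 in all 6 tumors, with at most 0.54 FPKM for Epcam, 0.11 for Krt8, 0.14 for Krt18 and 0 for Cdx2, while Cdh1 was at 2.44 to 3.96 FPKM and the intestinal lectin gene Lgals4 at 4.3 to 5.72. The hosts are stated to be female, yet Y-linked transcripts were read in all 6 tumors, with Ddx3y at 3.89, 2.13 and 2.16 FPKM with the antibody alone and 2.96, 3 and 3.31 in the combination, and their source was not tested. The labels do not say that the tumors of a group came from separate mice, and the p-values measure the spread between these libraries.

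A pair of libraries stood apart. Anti-PD-1 tumor 1 carried skeletal muscle transcripts, with a summed level of 1101 FPKM over 31 muscle genes against 158 and 252 in antibody tumors 2 and 3 and 159 to 187 in the combination tumors. Combination tumor 2 carried keratinocyte transcripts, with Krtdap at 0.2, 17.4 and 0.19 FPKM in the combination tumors against 0.19 to 0.39 in the anti-PD-1 tumors. These libraries were also the extremes of a trend with transcript length, described below with the ribosomal genes. Values that rest on these libraries are therefore also given without anti-PD-1 tumor 1, and for several genes and lists without combination tumor 2.

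No gene passed the test in the comparison as designed. With edgeR's quasi-likelihood test, 0 of 13563 genes (0%) had a Benjamini-Hochberg adjusted p under 0.05, and the smallest adjusted p was 0.663. At an unadjusted p under 0.05, 603 genes (4.45%) were higher and 381 (2.81%) lower in the combination, 984 in all. All 3 combination tumors lay above all 3 anti-PD-1 tumors in 587 genes (4.33%) and below them in 775 (5.71%), judged on normalised counts scaled to library size (CPM). Non-overlap is meant in this sense throughout, and log2 CPM stands for the same counts on the log2 scale. DESeq2 on the same counts called 1 gene, Rpf2, and limma on log2(FPKM + 1) called 0. Tumors of different groups were about as far apart as tumors of the same group. The root mean square log2 difference between a pair of tumors was 0.31 to 0.56 across the groups, 0.37 to 0.66 within anti-PD-1 and 0.34 to 0.43 within the combination.

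Without anti-PD-1 tumor 1, edgeR called 2 of 13680 genes, Mrc1 and Col6a5, and at an unadjusted p under 0.05 it counted 704 higher (5.15%) and 378 lower (2.76%). Without combination tumor 2 these counts were 211 (1.54%) and 145 (1.06%) of 13701 genes, with 0 called at an adjusted p. Genes past a fold of 1.5 with an unadjusted p under 0.05 turned over with anti-PD-1 tumor 1. With it, 36 such genes were higher and 73 lower, among them 22 of the muscle list, and in 61 of the 73 it was the highest of the anti-PD-1 tumors. Of the 36, combination tumor 2 was the highest combination tumor in 24. Without anti-PD-1 tumor 1, 288 were higher and 31 lower. In 208 (72.2%) of those 288 genes anti-PD-1 tumor 1 itself lay above all 3 combination tumors, as it did in 37.2% of all genes tested.

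**Figure D1:**
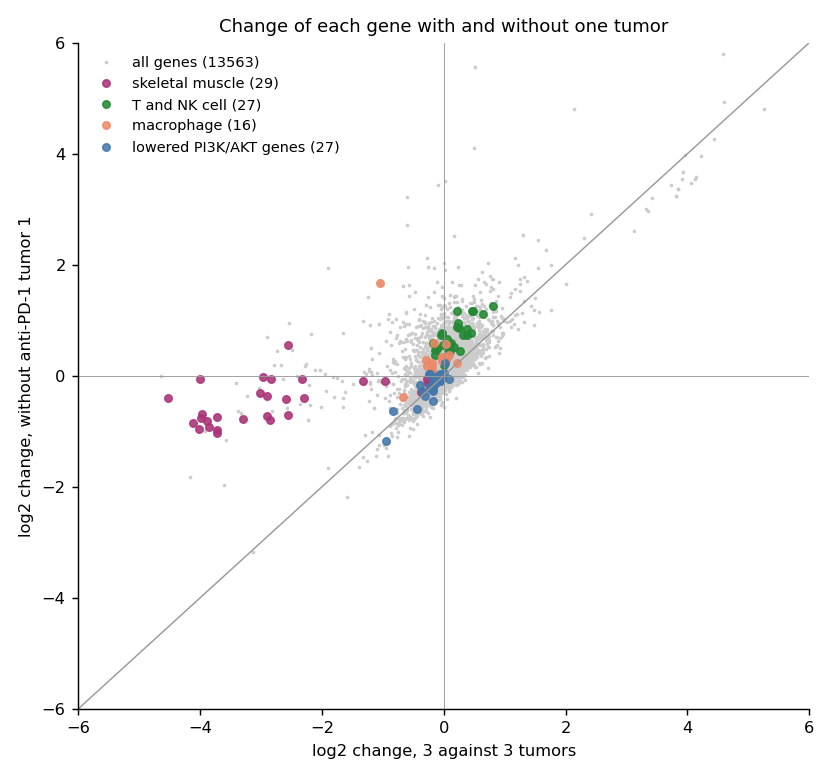
Log2 change of each of 13563 genes, combination minus anti-PD-1, with all 6 tumors (x axis) and without anti-PD-1 tumor 1 (y axis). Each point is a gene, 1 gene lies outside the axes, and the diagonal marks equal values. Muscle genes lie far to the left (median −2.91) and closer to 0 but mostly below it on the y axis (median −0.40). T and NK cell and macrophage genes move upward once the tumor is left out, and the lowered PI3K/AKT genes stay near the diagonal.

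The genes that held with and without that tumor are described first. At an unadjusted p under 0.05 in the same direction with and without anti-PD-1 tumor 1, with the groups not overlapping and a mean of at least 1 FPKM in either group, 166 genes were higher and 126 lower. Their changes were small, with a median of 0.36 on the log2 scale for the higher genes (0.15 to 1.49) and −0.22 for the lower ones (−0.15 to −1.09), and the p that chose them is not support for them. Of the 12 with the smallest p in each direction, 11 are named. With edgeR no gene described below had an adjusted p under 0.663 with all 6 tumors.

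Rpf2 (gene 67239, chr10:40223246-40247039 in GRCm38.p6), a factor that brings the 5S ribonucleoprotein into the large ribosomal subunit, had 24.9, 30.3 and 31.2 FPKM with the antibody alone and 44.5, 40.5 and 39.8 FPKM in the combination. Its lowest combination tumor was thus above its highest anti-PD-1 tumor. The log2 change was 0.53 (SE 0.09, unadjusted p = 5.2e-05), or 0.43 without anti-PD-1 tumor 1 and 0.53 without combination tumor 2, and DESeq2 gave it an adjusted p of 0.00488. Nup37 (gene 69736, chr10:88146976-88178395), a nucleoporin of the Y-shaped scaffold of the pore, had 37.0, 45.5 and 46.3 FPKM in the anti-PD-1 tumors and 60.8, 59.4 and 54.2 FPKM in the combination tumors, which was 0.43 on the log2 scale (SE 0.09). Rps27l, a paralog of a small-subunit ribosomal protein, had 97.0, 102 and 119.6 FPKM with the antibody alone and 151, 180.3 and 139 FPKM in the combination, a difference of 0.54 (SE 0.11). Combination tumor 2 was the highest of the tumors for Rps27l, and reads shared with its far more abundant paralog Rps27 may have been divided between them.

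Esco1 acetylates cohesin, and it had 5.17, 5.54 and 5.74 FPKM with the antibody alone and 7.37, 7.84 and 6.45 in the combination. Splicing factors Sf3b6, which contacts the branch point, and Bud31 were higher by 0.48 (SE 0.11) and 0.37 (SE 0.08). The mitochondrial genes Tomm5, a small subunit of the outer-membrane import channel, and Apool, a component of the inner-membrane MICOS complex, were higher by 0.46 (SE 0.11) and 0.53 (SE 0.12). Sub1, a transcriptional coactivator, and Abracl, a small protein tied to actin dynamics, were higher by 0.41 and 0.55 (SE 0.10 and 0.12). In all of these the groups did not overlap, and anti-PD-1 tumor 1 was the lowest of the 6 tumors. The largest value belonged to Plac9a, at 2.94, 9.3 and 4.49 FPKM in the anti-PD-1 tumors and 12.2, 21.4 and 14.3 FPKM in the combination tumors. This gene has a near-identical copy, Plac9b, and the 2 copies added together gave 41.6, 76.2 and 52.3 FPKM in the anti-PD-1 tumors and 58.3, 66.9 and 65.7 in the combination tumors, which overlap.

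**Figure D2:**
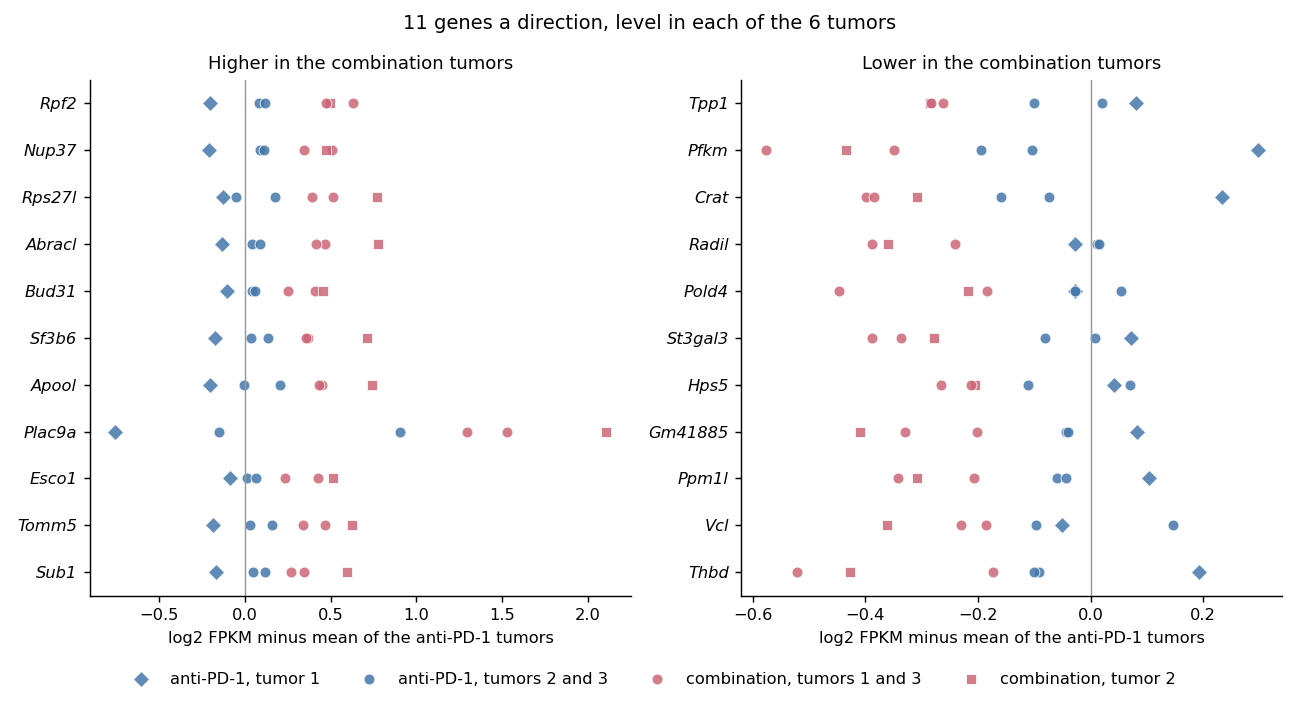
Level of 11 higher (left) and 11 lower (right) genes in each tumor, as log2 FPKM minus the mean of the 3 anti-PD-1 tumors. Blue marks are anti-PD-1 and red marks combination tumors, with diamonds for anti-PD-1 tumor 1 and squares for combination tumor 2. In each gene the red and blue marks do not overlap, which the rule that chose the genes required.

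Promoter sequence is shown for 3 of the higher genes and 1 lower gene as examples. They were not drawn at random and do not stand for the shares of the higher and lower genes, which are given after the sequences. Each line gives the 250 bases before a start of the gene in RefSeq (GRCm38.p6, the first listed in its promoter table, which for Nup37 and Tpp1 lies inside the outer bounds of the gene), 5′ to 3′ on the strand of the gene, with capitals for the core of ETS family factors, CCGGAAG, or its reverse complement. The stretches are chr10:40247040-40247289 on the minus strand for Rpf2, chr10:88146742-88146991 on the plus strand for Nup37, chr5:100798509-100798758 on the plus strand for Mrps18c, which encodes a mitochondrial ribosomal protein, and chr7:105752236-105752485 on the minus strand for Tpp1.
Rpf2: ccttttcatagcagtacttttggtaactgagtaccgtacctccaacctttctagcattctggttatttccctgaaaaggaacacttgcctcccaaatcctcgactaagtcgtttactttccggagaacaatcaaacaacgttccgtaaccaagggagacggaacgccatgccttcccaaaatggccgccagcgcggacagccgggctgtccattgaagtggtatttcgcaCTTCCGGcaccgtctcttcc
Nup37: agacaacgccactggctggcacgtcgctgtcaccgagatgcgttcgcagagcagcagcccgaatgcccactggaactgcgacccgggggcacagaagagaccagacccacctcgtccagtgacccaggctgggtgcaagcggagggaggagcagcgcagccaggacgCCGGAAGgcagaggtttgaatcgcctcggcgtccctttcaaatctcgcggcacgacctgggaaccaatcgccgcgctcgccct
Mrps18c: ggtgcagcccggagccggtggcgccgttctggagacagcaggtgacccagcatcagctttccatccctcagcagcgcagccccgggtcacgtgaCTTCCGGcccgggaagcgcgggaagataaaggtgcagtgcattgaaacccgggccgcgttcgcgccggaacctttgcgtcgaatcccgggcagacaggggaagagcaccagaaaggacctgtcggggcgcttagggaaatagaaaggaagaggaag
Tpp1: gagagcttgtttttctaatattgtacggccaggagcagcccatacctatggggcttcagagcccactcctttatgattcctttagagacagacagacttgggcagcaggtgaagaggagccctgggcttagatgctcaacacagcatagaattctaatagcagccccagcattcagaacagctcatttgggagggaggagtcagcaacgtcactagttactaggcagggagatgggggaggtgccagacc

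The ETS core stood on either strand of this window in Rpf2, Nup37 and Mrps18c and not in Tpp1. RefSeq promoters matched 136 of the 166 higher genes, 104 of the 126 lower genes and 10732 of all genes tested. The core was found in 26 (19.1%) of the higher genes, 14 (13.5%) of the lower genes and 13.4% of all. The shares of the NRF1 core GCGCATGC were 5.88%, 2.88% and 4.27%, those of the CCAAT box (CCAAT) 40.4%, 36.5% and 36.7%, and those of the TATA box TATAAA 8.82%, 6.73% and 6.87%. E2F sites written as TTTNGCGC were in 2.94%, 1.92% and 1.94%, and the SP/KLF core GGGCGG in 60.3%, 61.5% and 57.7%. The E-box CACGTG was in 11.0%, 10.6% and 8.08%, and the YY1 core AAGATGGC in 1.47%, 0% and 1.95%. Both strands were searched, and matches of different motifs may overlap. Of the mitochondrial ribosomal genes tested, 24.6% held the ETS core and 11.6% the NRF1 core, and among the genes of oxidative phosphorylation 17.2% and 12.5%. A match describes the letters of the window and is not a bound site.

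Among the lower genes Tpp1 (gene 12751, chr7:105744811-105752282), a lysosomal tripeptidyl peptidase, had 53.1, 50.9 and 46.8 FPKM with the antibody alone and 41.8, 41.1 and 41.2 FPKM in the combination. The combination tumors were within 1 FPKM of each other and all below the antibody tumors, a difference of −0.28 (SE 0.06, unadjusted p = 0.000796). Pfkm, the muscle-type phosphofructokinase of glycolysis, had 20.2, 15.3 and 14.4 FPKM in the anti-PD-1 tumors and 11.0, 12.2 and 12.9 FPKM in the combination tumors. Anti-PD-1 tumor 1 was the highest for Pfkm, and without it the difference went from −0.46 to −0.31 (unadjusted p = 0.00418). Crat, a carnitine acetyltransferase, differed by −0.34, or −0.24 without that tumor.

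Vcl, which encodes the focal adhesion protein vinculin, had 38.2, 43.8 and 37.0 FPKM with the antibody alone and 33.8, 30.8 and 34.8 FPKM in the combination, a difference of −0.26 (SE 0.08). Thbd, the endothelial thrombin receptor thrombomodulin, went from 5.33, 4.38 and 4.35 to 3.25, 3.47 and 4.14 FPKM across the tumors of each group. Pold4, a small subunit of DNA polymerase delta, differed by −0.29 (SE 0.08), and Radil, a RAP1 effector, by −0.34 (SE 0.09). St3gal3, a sialyltransferase, Hps5, which serves the biogenesis of lysosome-related organelles, Ppm1l, a protein phosphatase, and the predicted gene Gm41885 differed by −0.32, −0.24, −0.28 and −0.31. Unlike the higher genes, which were lowest in anti-PD-1 tumor 1 in 112 of 166, most of the 126 lower genes had their highest value in anti-PD-1 tumor 2 (80 genes), against 23 each for tumors 1 and 3. The rule asked for a p that held without anti-PD-1 tumor 1, which disfavors lower genes that rest on it. This order is thus partly set by the rule, and it was not counted over all genes.

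The same genes were then read in PB-020 against CK, which shares no tumor with the comparison above and asks the same question without the antibody. This reading was chosen after the values were seen. Of the 166 higher genes, 140 (84.3%) were also higher in PB-020 than in CK, where 48.7% of all genes were, and 30 of them had an unadjusted p under 0.05, against 423 (3.12%) of all genes higher at that threshold. Of the 126 lower genes, 100 (79.4%) were lower in PB-020, against 51.3% of all genes, and 15 had an unadjusted p under 0.05, against 318 (2.34%) of all genes lower. The sizes were smaller, with a median of 0.15 for the higher genes and −0.06 for the lower ones, and 0 genes had an adjusted p under 0.05 in PB-020 against CK with edgeR, and 741 had an unadjusted p under 0.05. Rpf2 was 0.20 higher there (unadjusted p = 0.0453) and Nup37 0.23 (unadjusted p = 0.0251), while Tpp1 was 0.04 (unadjusted p = 0.503). Radil, Pold4, Hps5 and Thbd, named above as lower, were also above 0 there, at 0.02 to 0.08, and the other named lower genes below 0. Plac9a, named as higher, was at −0.28, and the other named higher genes above 0. The difference between the contrasts had an unadjusted p under 0.05 with edgeR in 16 of the 166, 26 of the 126 and 310 of all 13563 genes, and an adjusted p under 0.05 in 0. The 166 and 126 genes were chosen by their values in the first contrast, which by itself raises their counts here. These counts therefore cannot tell whether the PB-020 effect depends on the antibody. Both contrasts had a trend with transcript length, given below with the ribosomal genes.

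In the IGF system the receptors differed little between the groups and the ligands varied between tumors. Igf1r (gene 16001, chr7:67952257-68233668), the target of PB-020, had 11.0, 10.9 and 10.9 FPKM in the anti-PD-1 tumors and 9.53, 10.1 and 10.7 FPKM in the combination tumors. All 3 combination tumors were below the anti-PD-1 tumors, and the log2 difference was −0.11 (95% interval −0.25 to 0.02, unadjusted p = 0.0961). Insr, the insulin receptor, had 6.44, 6.3 and 5.43 FPKM with the antibody alone and 4.93, 5.23 and 5.32 FPKM in the combination, again without overlap, and differed by −0.23 (unadjusted p = 0.0215). Igf2r, the scavenger receptor for IGF2, overlapped between the groups and differed by −0.25 (unadjusted p = 0.0299).

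The adaptor Irs1 was also without overlap, at 2.33, 2.33 and 2.18 FPKM in the anti-PD-1 tumors and 2, 2.1 and 2.14 FPKM in the combination tumors, a difference of −0.13 (unadjusted p = 0.098), whereas Irs2 differed by 0.03 (SE 0.10). Without anti-PD-1 tumor 1 the unadjusted p was 0.105 for Igf1r, 0.0644 for Insr and 0.0772 for Igf2r. The ligand Igf1 varied within both groups, from 5.86, 0.82 and 1.55 FPKM in the anti-PD-1 tumors to 1.13, 3.12 and 2.81 in the combination tumors, and its difference went from −0.21 (SE 0.66) to 0.98 without anti-PD-1 tumor 1. The other ligand, Igf2, was highest in anti-PD-1 tumor 1 at 1.24 FPKM against 0.04 to 0.26 in the other 5 tumors, and it differed by −1.49 (SE 0.68), or −0.15 without that tumor. Over the whole list, 0 of 9 tested members were higher and 3 (Igf2, Igf2r and Insr) lower at an unadjusted p under 0.05, and 0 in either direction without tumor 1, beside the 4.45% and 2.81% of all genes. The median of the list was −0.19 with tumor 1 and −0.13 without it, where all genes had −0.02 and −0.003. The list is of long transcripts, with a median effective length of 6924 bases against 2716 over all genes. With the trend over length taken out, as described below, 0 of its members were higher or lower at an unadjusted p under 0.05, and its median was −0.13. In that fit Igf1r differed by −0.03 and Irs1 by −0.06 (edgeR, unadjusted p = 0.573 and 0.412). Of 5 tested IGF-binding proteins 0 passed with all tumors and 1 (Igfbp7) was higher without the first, and the most abundant, Igfbp4, differed by −0.09 (SE 0.11).

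Transcripts of the kinases downstream were almost level. Akt1, the most abundant of the 3 AKT genes, had 109, 104 and 103 FPKM with the antibody alone and 104, 104 and 116 FPKM in the combination, a difference of 0.05 (SE 0.07). Eif4ebp1, the translation repressor that mTOR phosphorylates, had 304, 306 and 315 FPKM in the anti-PD-1 tumors and 293, 318 and 321 FPKM in the combination tumors, a difference of 0.0032 (SE 0.06). Of 29 core genes of PI3K, AKT and mTOR, 0 were higher and 2 lower at an unadjusted p under 0.05, beside 4.45% and 2.81% of all genes. These were Mtor at −0.17 and Tsc1, part of the complex that restrains mTOR, at −0.19. Both were above that threshold without anti-PD-1 tumor 1, where 2 others (Pik3cd and Inpp4b) were higher and 1 (Rictor) lower. Targets of FOXO, the transcription factors that AKT keeps out of the nucleus, gave 1 higher (Sgk3) and 0 lower of 20, or 0 and 0 without anti-PD-1 tumor 1, with the most abundant, Klf2, at −0.03 (SE 0.07), and the 17 output genes of the ERK pathway gave 0 in either direction, with the most abundant, Ccnd1, at 0.07 (SE 0.10), and 2 higher (Fos and Myc) without anti-PD-1 tumor 1.

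The study drew 27 PI3K/AKT genes as lowered by the combination against vehicle, and not against the antibody alone. The choice used these combination tumors, so the list is not independent evidence of its direction. Relative to the 6 tumors compared, its mean log2 CPM was 0.60, 0.86 and 0.81 in the CK tumors. With the antibody alone it was 0.13, 0.30 and −0.13, and in the combination −0.17, −0.10 and −0.02. In the direct comparison 0 of the 27 were higher and 6 (Gng4, Pdgfrb, Pdgfra, Lamc1, Fgf1 and Thbs3) lower at an unadjusted p under 0.05, where 4.45% of all genes were higher and 2.81% lower, and the median was −0.19, or −0.17 without anti-PD-1 tumor 1. Gng4 (gene 14706, chr13:13784059-13827895), a gamma subunit of G proteins, had 0.64, 1.18 and 1.07 FPKM with the antibody alone and 0.63, 0.39 and 0.55 FPKM in the combination. Its difference was −0.94 (SE 0.28) and −1.17 without tumor 1, with the combination tumors all below, though combination tumor 1 and anti-PD-1 tumor 1 lay within 0.01 FPKM. Pdgfra, the platelet-derived growth factor receptor of fibroblasts, had 8.47, 10.7 and 8.24 FPKM in the anti-PD-1 tumors and 6.71, 7.57 and 7.72 FPKM in the combination tumors, and differed by −0.31 (SE 0.11) and by −0.37 without that tumor. Pdgfrb, its counterpart on pericytes, had 27.0, 28.6 and 24.3 FPKM with the antibody alone and 21.8, 21.6 and 24.5 FPKM in the combination, a difference of −0.22 (SE 0.08). In FPKM combination tumor 3 was slightly above anti-PD-1 tumor 3, so the groups met there, though not in normalised CPM. Thbs3, a thrombospondin of the matrix, differed by −0.20 (SE 0.09).

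Gng4, Pdgfra, Pdgfrb and Thbs3 kept an unadjusted p under 0.05 without anti-PD-1 tumor 1, and without combination tumor 2 the p was 0.0276, 0.0277, 0.0576 and 0.192. The matrix members of the list did not move together. Fn1, fibronectin, differed by −0.25 with anti-PD-1 tumor 1 and 0.04 without it, and Col3a1 overlapped widely, at 548, 699.8 and 338 FPKM in the anti-PD-1 tumors and 364, 478 and 513 FPKM in the combination tumors. Of the 12 genes drawn as raised, also against vehicle, Ccne2 was higher at an unadjusted p under 0.05 and 0 were lower. Ccne2, the S-phase cyclin E2, had 10.7, 10.2 and 12.6 FPKM with the antibody alone and 16.0, 17.5 and 14.2 FPKM in the combination, a difference of 0.50 (SE 0.13) and 0.46 without anti-PD-1 tumor 1. Its groups did not overlap. Hsp90aa1, the inducible cytosolic HSP90, differed by 0.27 (SE 0.12, unadjusted p = 0.0507). Without anti-PD-1 tumor 1, where 5.15% of all genes were higher, 4 of the 12 were, Angpt1, Pdgfd and Il2ra beside Ccne2, and the median of the 12 went from 0.00 to 0.44.

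Genes of T and NK cells depended on which antibody tumors were used. Cd8a (gene 12525, chr6:71373427-71379171), the coreceptor of cytotoxic T cells, had 10.3, 4.45 and 3.84 FPKM in the anti-PD-1 tumors and 4.73, 7.39 and 6.25 FPKM in the combination tumors. Anti-PD-1 tumor 1 was the highest of all 6, and the combination tumors were all above anti-PD-1 tumors 2 and 3. The difference was −0.01 (95% interval −0.77 to 0.74) with all tumors and 0.56 (unadjusted p = 0.0123) without the first. The same order was seen in Cd2, an adhesion receptor of T and NK cells, at 10.3, 3.43 and 3.99 FPKM with the antibody alone and 5.6, 8.04 and 7.11 FPKM in the combination, and in the costimulator Icos, at 4.32, 0.8 and 1.45 FPKM in the anti-PD-1 tumors and 2.51, 2.82 and 2.26 FPKM in the combination tumors. Without the first tumor Cd2 was higher by 0.89 and Icos by 1.16, against 0.22 and 0.21 with all tumors.

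Of 17 T cell genes tested, 0 were higher or lower at an unadjusted p under 0.05 with all tumors, and 11 of 18 were higher and 0 lower without anti-PD-1 tumor 1, where 5.15% of all genes were higher. The median went from 0.05 to 0.58. With both anti-PD-1 tumor 1 and combination tumor 2 left out, 5 were higher. The most abundant, Thy1, also made by fibroblasts, differed by 0.01 with all tumors and 0.19 without the first. NK cell genes were the immune list with the largest median, 0.41 with all tumors and 0.81 without the first, and 1 of 10 was higher at an unadjusted p under 0.05 with all tumors and 8 without it. Klrd1, the CD94 subunit of NK receptors, had 10.6, 4.83 and 5.44 FPKM with the antibody alone and 8.99, 15.4 and 11.2 FPKM in the combination. Combination tumor 2 was the highest, and the difference of 0.81 (SE 0.34) became 1.26 without anti-PD-1 tumor 1 and 0.58 (unadjusted p = 0.132) without combination tumor 2. Ncr1, the NK activating receptor NKp46, had 1.83, 0.58 and 1.13 FPKM in the anti-PD-1 tumors and 1.77, 1.93 and 1.88 FPKM in the combination tumors. Its combination values lay close together, and anti-PD-1 tumor 1 was among them.

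Of the cytotoxic effectors, Gzmb, granzyme B, had 39.7, 17.3 and 24.5 FPKM with the antibody alone and 22.9, 31.8 and 27.8 FPKM in the combination, and Prf1, perforin, 11.8, 6.03 and 8.04 FPKM in the anti-PD-1 tumors and 6.19, 9.62 and 8.81 FPKM in the combination tumors. Both overlapped, and their differences were 0.02 and −0.07 (SE 0.40 and 0.49). Ifng, interferon gamma, had 5.36, 1.5 and 2.85 FPKM with the antibody alone and 2.03, 3.91 and 3.61 FPKM in the combination, a difference of −0.03 (SE 0.41). Without anti-PD-1 tumor 1 Gzmb, Prf1 and Ifng differed by 0.39, 0.21 and 0.54, with unadjusted p of 0.392, 0.72 and 0.167 in edgeR. Of the 14 effectors 5 (Gzma, Gzmk, Nkg7, Ctsw and Ccl5) were higher there at an unadjusted p under 0.05, beside 5.15% of all genes. The granzymes Gzmc to Gzmf followed another order, with Gzmf at 86.0, 47.1 and 110 FPKM in the anti-PD-1 tumors and 40.4, 93.0 and 65.8 FPKM in the combination tumors, and its highest value in anti-PD-1 tumor 3.

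Pdcd1, which encodes PD-1, had 5.32, 2.65 and 1.86 FPKM with the antibody alone and 2.55, 3.28 and 3.21 FPKM in the combination, a difference of −0.12 (95% interval −0.87 to 0.63), and Cd274, its ligand PD-L1, differed by −0.32 (SE 0.35). Among 15 inhibitory receptors and exhaustion genes 1, Cd160, was higher with all tumors at an unadjusted p under 0.05, at 0.68, 0.49 and 0.3 FPKM in the anti-PD-1 tumors and 0.71, 1.19 and 0.77 FPKM in the combination tumors. Its level was under 1.2 FPKM in each tumor. Without anti-PD-1 tumor 1, Ctla4, Lag3, Tigit and Nr4a3 joined it. For regulatory T cells 0 of 10 genes were higher with all tumors and 4 (Il2ra, Ikzf4, Tnfrsf4 and Ccr8) without the first, and Tnfrsf9, the most abundant of that list, differed by −0.11 and 0.08. Of all genes 4.45% were higher with all tumors and 5.15% without the first.

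**Figure D3:**
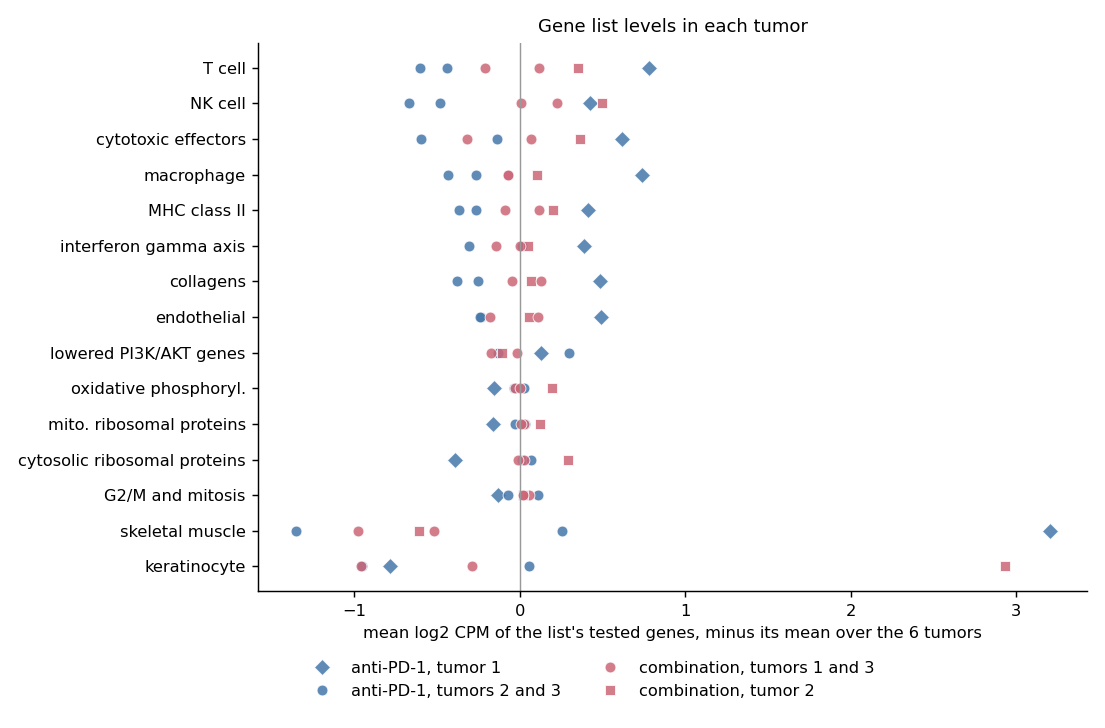
Level of 15 gene lists in each tumor, as the mean log2 CPM of the tested genes of the list, minus its mean over the 6 tumors. Blue marks are anti-PD-1 and red marks combination tumors, with a diamond for anti-PD-1 tumor 1 and a square for combination tumor 2. For T cell, macrophage and collagen genes the diamond is farthest to the right and the red marks lie between it and the other blue marks, for muscle genes the diamond is at 3.20 and for keratinocyte genes the square is at 2.93.

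Macrophage genes held 1 of the 2 calls made without anti-PD-1 tumor 1. Mrc1 (gene 17533, chr2:14229414-14332023), the mannose receptor CD206 of tissue macrophages, had 38.4, 16.8 and 14.8 FPKM with the antibody alone and 24.6, 24.8 and 21.7 FPKM in the combination. The combination tumors were close to each other, all above anti-PD-1 tumors 2 and 3 and all below tumor 1. Its difference was 0.03 (SE 0.30) with all tumors and 0.58 without the first (edgeR's quasi-likelihood test, adjusted p = 0.0301). The other gene called there, Col6a5, a collagen VI chain, had 0.96, 0.02 and 0.03 FPKM in the anti-PD-1 tumors and 0.28, 0.18 and 0.19 FPKM in the combination tumors, under 1 FPKM in every tumor, and a difference of 3.22 (SE 0.46, adjusted p = 0.0301 with edgeR). Both were named for their values. Neither was called with combination tumor 2 also left out, where edgeR called 0 genes.

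Of 16 macrophage genes 0 passed an unadjusted p of 0.05 with all tumors, and 9 were higher and 0 lower without anti-PD-1 tumor 1, where 5.15% of all genes were higher. When combination tumor 2 was left out as well, 8 were higher, beside 419 of 13597 genes. The complement genes C1qa, C1qb and C1qc were higher by 0.33, 0.38 and 0.32 without the first tumor, against −0.02, 0.09 and −0.03 with it. Apoe, a lipid carrier made by macrophages, had 996, 297 and 344 FPKM with the antibody alone and 438, 522 and 507 FPKM in the combination, so that its sign turned from −0.16 to 0.60. Arg1, arginase, and Nos2, the inducible nitric oxide synthase, had unadjusted p of 0.986 and 0.363. Chemokines kept a like order, with 1 of 17 CC chemokines and receptors higher with all tumors and 7 without the first, beside 4.45% and 5.15% of all genes. Ccl11, eotaxin, had 19.1, 4.01 and 4.17 FPKM in the anti-PD-1 tumors and 9.01, 11.8 and 8.43 FPKM in the combination tumors, and was higher by 1.24 without that tumor (adjusted p = 0.0692 with edgeR). Ccr2, the receptor of recruited monocytes, was the 1 member higher with all tumors, at 10.4, 11.5 and 11.2 FPKM with the antibody alone and 18.6, 17.3 and 14.2 FPKM in the combination. Its groups did not overlap, and the difference was 0.60 (SE 0.22, unadjusted p = 0.0217), or 0.55 (unadjusted p = 0.0816) without anti-PD-1 tumor 1. Among macrophage genes Msr1, a scavenger receptor, was also without overlap, at 0.21 (unadjusted p = 0.175). The most abundant chemokine, Ccl2, differed by 0.10 (SE 0.26). Of 12 dendritic cell genes 0 passed with all tumors and 2 (Ccr7 and Clec10a) were higher without the first, with the most abundant, Fscn1, at −0.01.

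Interferon response genes held no member past the threshold in either setting. Cxcl9, a chemokine induced by interferon gamma, had 114, 62.1 and 80.8 FPKM in the anti-PD-1 tumors and 102, 127 and 114 FPKM in the combination tumors, a difference of 0.42 (SE 0.35) and 0.67 (unadjusted p = 0.126) without the first tumor, while Cxcl10 had 199, 156 and 192 FPKM with the antibody alone and 187, 157 and 147 FPKM in the combination. Of 13 genes of the interferon gamma axis, 18 type I interferon-stimulated genes and 15 GBP and IRG GTPases, 0 were higher or lower at an unadjusted p under 0.05 with or without anti-PD-1 tumor 1. The most abundant of each, Irf1, Zbp1 and Gbp2, differed by −0.24, −0.12 and 0.03 with all tumors. Medians of the lists without the first tumor were 0.10, 0.02 and 0.13. For antigen presentation, B2m, the light chain of MHC class I, differed by 0.15 (SE 0.17) and Calr was the 1 of 16 lower at an unadjusted p under 0.05, and Cd74, the invariant chain of class II, had 1077, 486 and 531 FPKM in the anti-PD-1 tumors and 654, 764 and 813 FPKM in the combination tumors. The class II list had 0 of 11 genes higher with all tumors and 3 (H2-Aa, H2-Ab1 and Cd74) without the first, beside 4.45% and 5.15% of all genes. Of the 7 common gamma chain receptors, with Il2rg at −0.14, 0 passed with all tumors and 3 (Il2ra, Il4ra and Il21r) were higher without the first, and of the 3 genes of the CXCR3 axis 0 and 1 (Cxcr3).

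Over the 17 immune lists together, 203 genes were tested, of which 3 (Cd160, Klrd1 and Ccr2) were higher and 1 (Calr) lower at an unadjusted p under 0.05 with all tumors. Without anti-PD-1 tumor 1, 55 of 205 (26.8%) were higher, against 5.15% of all genes, and 1 (Xbp1) was lower. Their median change went from −0.01 to 0.23. Anti-PD-1 tumor 1 was the highest of the 6 tumors in 14 of the 17 lists, and in 11 lists all 3 combination tumors were above anti-PD-1 tumors 2 and 3. Beside these lists the muscle, collagen and endothelial lists were also highest in that tumor, and the part of the muscle transcripts in the immune values was not tested. B and plasma cell markers were scarce, since 4 of 10 were tested, with Xbp1 the most abundant at 56.3, 65.2 and 59.2 FPKM with the antibody alone and 55.1, 55.2 and 55.4 FPKM in the combination. Neutrophil genes varied between tumors of both groups, with 0 of 11 at an unadjusted p under 0.05 and Il1b at 16.4, 12.7 and 35.9 FPKM in the anti-PD-1 tumors and 10.5, 28.2 and 18.9 FPKM in the combination tumors.

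**Figure D4:**
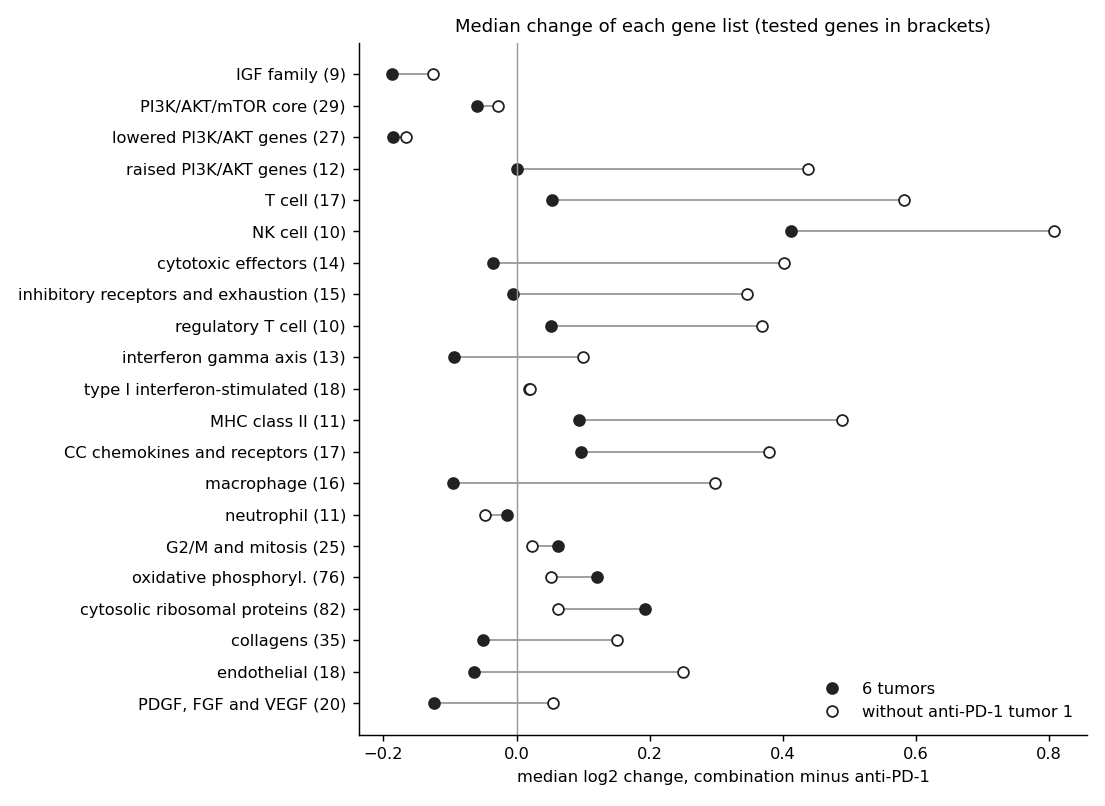
Median log2 change of 21 gene lists, combination minus anti-PD-1, with all 6 tumors (filled circles) and without anti-PD-1 tumor 1 (open circles). The number of tested genes is in brackets. The T cell, NK cell, cytotoxic, MHC class II and macrophage lists lie to the right without that tumor, whereas the IGF and lowered PI3K/AKT lists stay below 0 in both.

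Lists of protein synthesis and respiration held more members higher than lower at an unadjusted p under 0.05. Of 82 cytosolic ribosomal protein genes, 23 were higher and 0 lower, beside 4.45% and 2.81% of all genes, with a median of 0.19. Their summed level was 100220, 133570 and 139040 FPKM in the anti-PD-1 tumors and 138200, 161880 and 134730 in the combination tumors. Anti-PD-1 tumor 1 was the lowest and combination tumor 2 the highest, with the other 4 between them. Without the first, 1 ribosomal gene was higher, and without the second also 1 higher and 1 lower.

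Of 76 genes of oxidative phosphorylation 20 were higher and 2 lower, with a median of 0.12, against the same shares of all genes. With anti-PD-1 tumor 1 left out, 8 were higher and 1 lower (5.15% and 2.76% of all genes), and without combination tumor 2, 5 and 1 (1.54% and 1.06%), with a median of 0.06. Uqcrb, a subunit of complex III, had 219, 256 and 284 FPKM with the antibody alone and 325, 370.3 and 314 FPKM in the combination. The groups did not overlap, and the difference was 0.39 (SE 0.10), 0.30 without the first tumor and 0.30 without combination tumor 2. Cox6c and Cox7a2, of complex IV, and Ndufv2, of complex I, were higher by 0.48, 0.52 and 0.39 (SE 0.13, 0.16 and 0.11), also without overlap. Of 78 mitochondrial ribosomal genes 14 were higher and 1 lower, 4 and 1 without anti-PD-1 tumor 1, and 3 and 0 without combination tumor 2. Mrps18c, whose promoter is given above, had 44.2, 54.4 and 54.5 FPKM in the anti-PD-1 tumors and 69.7, 84.7 and 68.5 FPKM in the combination tumors, and Mrpl20, Mrpl53 and Mrpl32 were higher by 0.41, 0.34 and 0.37. Among 65 translation factors, whose median was 0.01, 9 were higher and 1 lower, 3 and 0 without anti-PD-1 tumor 1, and 4 and 0 without combination tumor 2. Among them were Eif2s2, a subunit of the initiator tRNA-binding complex, at 0.42 (SE 0.12), Eif3m at 0.40 (SE 0.14) and Eif2s3y, a Y-linked gene whose reads may be shared with its X-linked copy, at 0.46 (SE 0.18).

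These lists are made of short transcripts, and the changes had a trend with length. The effective length of a transcript, implied by its count and FPKM, had a median of 548 bases for the ribosomal list, 515 for oxidative phosphorylation and 903 for mitochondrial ribosomal genes, against 2716 over all genes. With genes cut by length into 10 groups of equal number, in the group with the shortest transcripts (74 to 1045 bases) the median change was 0.10, with 195 higher and 19 lower at an unadjusted p under 0.05, and in the group with the longest it was −0.08, with 9 higher and 82 lower. Relative to the mean of the 6 tumors, the shortest group was at −0.14 in anti-PD-1 tumor 1 and 0.17 in combination tumor 2, and at −0.04 to 0.02 in the other 4. Across genes, which are not independent replicates, Spearman's rho of change with length was −0.26, −0.13 without anti-PD-1 tumor 1 and −0.15 without combination tumor 2. In PB-020 against CK it was −0.23. Values with this trend taken out are given next. The trend was fitted over all genes, the ribosomal and respiratory lists among them. A change shared by these short transcripts would be taken out with it, so the part due to length cannot be told apart.

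**Figure D5:**
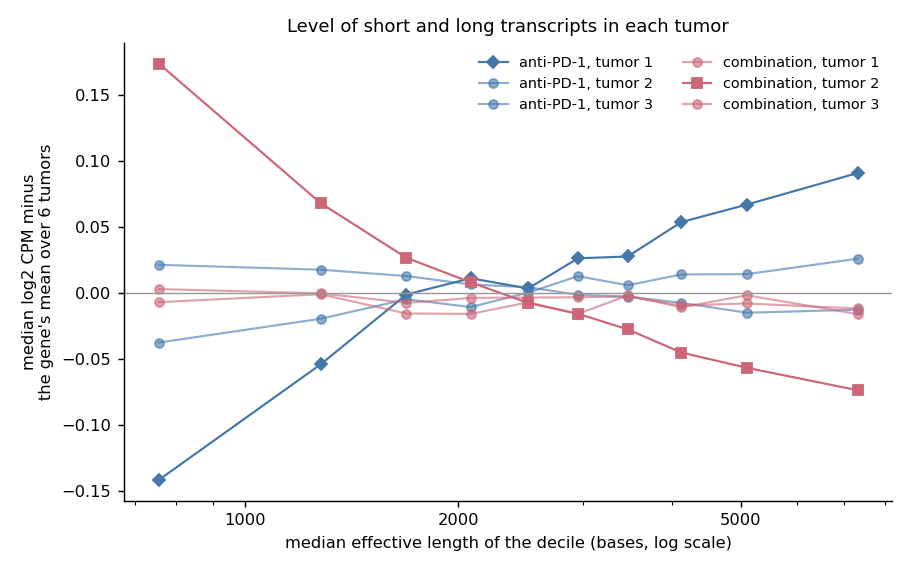
Median log2 CPM of genes in 10 groups by effective transcript length, minus the mean of each gene over the 6 tumors, for each tumor (log scale on the x axis). Anti-PD-1 tumor 1 (blue diamonds) runs from −0.14 for the shortest to 0.09 for the longest group, combination tumor 2 (red squares) from 0.17 to −0.07, and the other 4 tumors stay within 0.04 of 0.

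With the trend of each library over length taken out, an alternative added after the values were seen, 0 genes had an adjusted p under 0.05, and 539 (3.97%) were higher and 379 (2.79%) lower at an unadjusted p under 0.05. Of the 166 higher and 126 lower genes described first, 156 and 99 kept an unadjusted p under 0.05 in that fit, and without combination tumor 2 in the plain fit 128 and 53 did. Their sign in PB-020 against CK with the trend taken out was the same in 133 (80.1%, against 48.2% of all genes) and 92 (73%, against 51.8%). Among the lists, 14 ribosomal, 11 respiratory and 9 mitochondrial ribosomal genes were higher and 4, 12 and 4 lower at that threshold, with medians of 0.06, −0.01 and 0.03. The IGF, PI3K/AKT/mTOR core and integrin and laminin lists held 0 higher or lower members in that fit. These are lists of long transcripts (median 6924, 5484 and 5475 bases), and their median changes in that fit were −0.13, −0.025 and −0.05. Uqcrb, Cox6c and Mrps18c had unadjusted p of 0.00189, 0.000642 and 0.00212 there.

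In the stromal lists the counts are read beside 4.45% higher and 2.81% lower of all genes, or 5.15% and 2.76% without anti-PD-1 tumor 1. Of 20 PDGF, FGF and VEGF ligands and receptors, 0 were higher and 4 (Pdgfra, Pdgfrb, Fgf1 and Vegfc) lower at an unadjusted p under 0.05, and without that tumor 1 (Pdgfd) was higher and 3 (Pdgfra, Pdgfrb and Pgf) lower. Col1a1, the main chain of fibrillar collagen, had 339.7, 60.4 and 98 FPKM with the antibody alone and 99.9, 172 and 187 FPKM in the combination. The combination tumors lay between anti-PD-1 tumor 1 and the other antibody tumors, and the difference was −0.11 (SE 0.62) and 0.94 (unadjusted p = 0.0764) without the first. Of 35 collagens 0 passed with all tumors, and 8 were higher and 1 (Col16a1) lower without the first. Prelp, a small leucine-rich proteoglycan, had 54.6, 53.0 and 39.7 FPKM in the anti-PD-1 tumors and 39.4, 35.1 and 41.7 FPKM in the combination tumors, a difference of −0.34 (SE 0.11) that was −0.27 without that tumor. Smad3, a transducer of TGF-beta, differed by −0.27 (SE 0.10) and was the 1 of 18 genes of that list lower with all tumors, and 2 (Smad3 and Ltbp3) were lower without the first. Integrins and laminins gave 0 higher and 2 (Lamb2 and Lamc1) lower of 29, with Itgb1 at 0.11, matricellular genes 0 and 3 (Thbs3, Cyr61 and Fbn1) of 23, proteoglycans 0 and 2 (Prelp and Hspg2) of 11, and matrix proteases and inhibitors 0 and 0 of 21, with Timp2 at −0.15. These 4 lists gave, without anti-PD-1 tumor 1, 2 higher (Itga4 and Lama4) and 1 lower (Itgb5), 2 (Postn and Eln) and 1 (Thbs3), 2 (Lum and Aspn) and 2 (Prelp and Vcan), and 0 and 1 (Mmp2). Fibroblast genes gave 0 higher and 1 lower (Pdgfra) of 13, and pericyte genes 0 and 1 (Pdgfrb) of 13, with 3 higher (Dpt, Mfap5 and Clec3b) and 2 higher (Rgs5 and Myh11) without the first tumor. Angpt2, the destabilising ligand of TIE2, differed by 0.21 (SE 0.32), and of 18 endothelial genes, with Plvap at 26.4, 13.5 and 18.1 FPKM with the antibody alone and 15.7, 20 and 21.0 FPKM in the combination, 0 passed with all tumors and 1 (Eng) was higher without the first.

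Proliferation differed little. Mki67, the marker of cycling cells, had 106, 113 and 128 FPKM in the anti-PD-1 tumors and 120.2, 105 and 109.9 FPKM in the combination tumors, and Ube2c, a mitotic ubiquitin-conjugating enzyme, 269, 252 and 328 FPKM with the antibody alone and 289, 285 and 326 FPKM in the combination. Both overlapped widely, with differences of −0.05 and 0.07 (SE 0.14 and 0.13). List counts here are read beside 4.45% higher and 2.81% lower of all genes, or 5.15% and 2.76% without anti-PD-1 tumor 1. Of 29 genes of G1/S and DNA replication 2 (Ccne2 and Rfc4) were higher and 0 lower at an unadjusted p under 0.05. Of 25 mitotic genes 3 (Cdk1, Mad2l1 and Nusap1) were higher and 0 lower. Without anti-PD-1 tumor 1 these lists had 1 and 0 higher. Their median changes with all tumors were small, at 0.01 and 0.06. In the chaperone lists Hspe1, the mitochondrial co-chaperonin, was the 1 gene of 20 that was higher at an unadjusted p under 0.05, beside 1 lower (Cryab), at 118, 133 and 156 FPKM in the anti-PD-1 tumors and 177, 198 and 158 FPKM in the combination tumors. The groups overlapped for Hspe1 in normalised CPM, with a difference of 0.38 (SE 0.12). Hsp90b1, of the endoplasmic reticulum, and Atf4, the stress transcription factor, differed by 0.11 and −0.05 (SE 0.10 and 0.08), in lists where 0 were higher and 1 lower, Calr of 17 and Atf3 of 20. Glycolysis and hypoxia (23 genes) and cholesterol synthesis (21 genes) had 0 at an unadjusted p under 0.05, with Gapdh at −0.07 and Fdps at −0.01, and fatty acid synthesis had 1 lower (Acaca) of 13, with Scd2 at −0.06.

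The most extreme values were those of muscle and skin genes. Acta1 (gene 11459, chr8:123891758-123894775), skeletal muscle actin, had 176, 3.19 and 19.8 FPKM with the antibody alone and 3.81, 7.28 and 9.12 FPKM in the combination, and Ckm, muscle creatine kinase, 67.7, 0.51 and 5.34 FPKM in the anti-PD-1 tumors and 1.37, 1.47 and 1.68 FPKM in the combination tumors. Anti-PD-1 tumor 1 stood far above the other 5 in both. Their differences of −3.30 and −4.01 became −0.78 and −0.97 without it, with unadjusted p of 0.364 and 0.246. Of 29 muscle genes 23 (beside 2.81% of all genes) were lower with all tumors and 1 (beside 2.76%) without it. That gene, Eno3, the muscle enolase, had 73.3, 72.5 and 74.2 FPKM with the antibody alone and 64.6, 62.6 and 65.8 FPKM in the combination, with the groups apart also without the first tumor (−0.20, unadjusted p = 0.0455). Of 8 keratinocyte genes tested 0 passed, with a median of 3.62 that was −0.16 without combination tumor 2, although Krt14 was at 168, 131 and 181 FPKM in the anti-PD-1 tumors and 206, 178 and 165 FPKM in the combination tumors. Hbb-bs, a haemoglobin chain that marks blood in the sample, had 144, 40.8 and 88.8 FPKM with the antibody alone and 60.6, 77.8 and 48.4 FPKM in the combination, and Fabp4, a fatty acid-binding protein of adipocytes and capillaries, 48.0, 32.6 and 34.8 FPKM in the anti-PD-1 tumors and 28.4, 62.1 and 45.2 FPKM in the combination tumors. Both overlapped between the groups, and of 6 erythroid and 4 adipocyte genes tested 0 passed.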

How the data were processed

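RNA-seq libraries of MC38 tumors were read from 1 table with a column of expected counts and a column of FPKM for each of 12 libraries. The deposited expected counts were made by the authors from 150-base paired reads, with Bowtie2 alignment and RSEM estimation in the methods, HISAT also named in the processing notes, and GRCm38.p6 as the build. The deposited FPKM values are the authors' own, scaled to transcript length and library size. Of the expected counts, 91% were whole, and all were rounded to whole numbers.

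Genes were kept by filterByExpr (minimum count 10) and tested with edgeR 4.0.16 (TMM, robust quasi-likelihood F test, two-sided, 4 group means over all 12 libraries, R 4.3.3), with Benjamini-Hochberg adjustment over 13563 genes. DESeq2 1.42.0 and limma 3.58.1 on log2(FPKM + 1) were alternatives, with other filters, scalings, sets of libraries, a replicate block and a lowess correction for length. The fit was tested on simulated data. Group, dose, age and day come from the labels and the study's methods.

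Named genes were first the 12 with the smallest p a direction among genes that met a rule. The rule required a mean of at least 1 FPKM, non-overlapping groups and an unadjusted p under 0.05. That p had to hold in the same direction with and without anti-PD-1 tumor 1. Single genes of the pathways concerned were also named. In each list, up to 4 members that met the condition on p were named, whatever their level or overlap, or else the most abundant member. A few genes that met these rules are not reported here. Every other named gene was chosen after its values were seen. The members and lists were chosen with earlier results of these data known. RefSeq (GRCm38.p6) matched 18091 genes (99.3%), and promoters are the 250 bases before the first start in its promoter table. With 3 tumors a group, the number of tumors limits the precision.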

Additional observations from a re-analysis of the deposited data

How the results depend on the processing

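With 3 tumors a group, muscle transcripts in anti-PD-1 tumor 1, keratinocyte transcripts in combination tumor 2 and a length trend between those libraries, the counts depend on which tumors are used, and the causes were not tested. DESeq2 called 1 gene at an adjusted p under 0.05 where edgeR called 0, and every other setting with all 12 libraries also gave 0. Genes past a fold of 1.5 with an unadjusted p under 0.05, 109 in all, numbered 12 with limma on log2(FPKM + 1) and 250 without a filter on low counts, where 18163 genes were tested. With only the 6 libraries compared in the fit, 575 genes had an unadjusted p under 0.05 and 40 were also past the fold. At an unadjusted p, the strict filter gave 624 higher and 291 lower and limma 747 and 272, where the 984 genes were split 603 and 381.

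The tumors share replicate numbers in the labels, but same-numbered tumors did not deviate together (correlations of −0.15, −0.16 and −0.06), so the numbers were not taken as pairs. With the number as a replicate block, 0 genes had an adjusted p under 0.05, 799 an unadjusted p under 0.05, and 65 (33 higher and 32 lower) were past the fold.

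Leaving out 1 library in turn gave 0 to 2 genes at an adjusted p under 0.05, 356 to 1459 at an unadjusted p and 59 to 319 past the fold. The fold count was 319 without anti-PD-1 tumor 1, 181 without tumor 2 and 173 without tumor 3, and 59 without combination tumor 2, which also gave the 356. With both anti-PD-1 tumor 1 and combination tumor 2 left out, chosen after seeing the data, 635 genes (419 higher, 216 lower) had an unadjusted p and 214 (179 higher, 35 lower) were past the fold.

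Cd8a turned from −0.01 to 0.56 without anti-PD-1 tumor 1 and ranged from −0.25 to 0.56 over the libraries left out. Apoe turned from −0.16 to 0.60 without that tumor, or 0.54 without both, and ranged from −0.44 to 0.60. Of 51 list medians, 10 moved by more than the spread between tumors without anti-PD-1 tumor 1, 6 without both libraries and 3 without combination tumor 2.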
